A study of Mus musculus with 2 samples.

Results

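The annexins are a family of proteins that bind phospholipid membranes when calcium rises, and 8 of their genes are described here in sorted microglia: *Anxa1*, *Anxa2*, *Anxa3*, *Anxa4*, *Anxa5*, *Anxa6*, *Anxa7* and *Anxa11*. They are 8 of the 32285 genes of the count table and 8 of the 13 whose symbol starts with Anxa. The 8 were chosen by their measured counts in these libraries and cell states, so their levels by library and by state are given as descriptions, with no test. Of the other 5, *Anxa9* had 69 and 115 counts in the vehicle and lemborexant libraries, *Anxa10* had 13 and 10, *Anxa13* had 11 and 12, and the antisense transcript *Anxa11os* had 11 and 13. *Anxa8* had a count in 0 of 18374 and 0 of 24392 cells, and with up to 3 counts allowed for a count of 0, cells with a count could be up to 0.0163% and 0.0123%, which does not limit the share of cells that express it.

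An annexin has a core of repeated calcium-binding segments that holds on to acidic lipids, above all phosphatidylserine, and an N-terminal tail that differs between members and gives each its partners. Phosphatidylserine faces the cell interior in a healthy cell and the outside in a dying one, and annexins therefore meet it on vesicles, on torn membranes and on corpses. In macrophages and microglia the family is known for membrane repair, vesicle traffic, uptake of dying cells and the end of inflammation.

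The libraries hold single-cell RNA of live CD45lo CD11b+ microglia, sorted from cortex and hippocampus of one hemisphere of APPswe/PS1.delta.E9 (PSAPP) mice, which carry mutant human APP and presenilin 1 transgenes and deposit β-amyloid. All mice of both groups carried the transgenes, so there is no wild-type reference. Mice were 9 months old at the start and 10 months at the end of 30 days of daily oral gavage at lights on, with 0.5% methylcellulose in PBS as vehicle (VEH) or with lemborexant at 30 mg/kg/day in the same vehicle (LEM). Lemborexant blocks both orexin receptors and is used as a sleep medicine. Each treatment is 1 library made from a pool of 5 animals, male and female, so no test between treatments is possible, and treatment and pool of mice cannot be told apart. All intervals are exact 95% intervals of counting error alone, and limits for a count of 0 allow 3 counts.

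Depth was alike in the libraries, at 116229678 counts over 18374 cells in VEH (median per cell 5971) and 160752298 over 24392 cells in LEM (median 6034). *C1qa*, *Cx3cr1* and *P2ry12*, which mark microglia, had a count in 98.4% to 99.3% of cells of each library. Each cell was put into 1 state from raw counts of marker genes, none of them an annexin. Homeostatic cells were 80.3% of VEH and 79.1% of LEM cells. Chemokine high cells, 13.2% and 13.7%, had at least 10 summed counts of *Ccl3* and *Ccl4* and met no gate applied before. Cells of other states can also hold that many. Disease-associated microglia (DAM), the state that microglia take at plaques, were called from at least 4 of 7 markers (*Cst7*, *Lpl*, *Itgax*, *Spp1*, *Gpnmb*, *Csf1*, *Igf1*) and made up 2.07% (1.87 to 2.28) of VEH and 2.10% (1.93 to 2.29) of LEM cells. *Clec7a* was not used here. The smaller states were interferon-responsive (309 VEH and 519 LEM cells), MHC class II high (191 and 146), mitotic (134 and 196), S-phase (70 and 114), border-associated macrophage-like or BAM-like (25 and 68) and choroid plexus-like (40 and 135). Levels are CPM, the counts of a gene in the summed cells scaled to their total, and since each molecule was counted once from its 5′ end, levels of different genes are set side by side without a length correction.

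The genes of the 8 annexins lie apart in the GRCm38 genome (GENCODE M21 positions). *Anxa5* lies at chr3:36448923-36475894 on the minus strand, *Anxa3* at chr5:96793339-96845966 on the plus strand, *Anxa4* at chr6:86736840-86793584 on the minus strand and *Anxa2* at chr9:69453620-69491795 on the plus strand. *Anxa6* lies at chr11:54979108-55033445 on the minus strand, *Anxa7* at chr14:20455260-20480133 on the minus strand, *Anxa11* at chr14:25842156-25886804 on the plus strand and *Anxa1* at chr19:20373428-20390944 on the minus strand. *Anxa11os* lies on the opposite strand within *Anxa11*, and whether the counting used strand is not given in the sources used here.

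*Anxa2* and *Anxa5* are the members with the most alike pattern across states, so the RefSeq sequence just before the start of each gene is shown (GRCm38.p6, written 5′ to 3′ along the gene's strand, chr9:69453433-69453619 on the plus strand and chr3:36475895-36476137 on the minus strand). Capitals mark matches to the GC box (GGGCGG) and the AP-1 motif (TGACTCA), searched on both strands together with the E-box (CACGTG), an ETS core (AGGAAGT) and the TATA box (TATAAA).
Anxa2: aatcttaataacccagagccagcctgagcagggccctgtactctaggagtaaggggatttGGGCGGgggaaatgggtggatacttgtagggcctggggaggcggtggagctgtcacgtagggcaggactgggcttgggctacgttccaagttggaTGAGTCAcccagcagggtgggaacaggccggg
Anxa5: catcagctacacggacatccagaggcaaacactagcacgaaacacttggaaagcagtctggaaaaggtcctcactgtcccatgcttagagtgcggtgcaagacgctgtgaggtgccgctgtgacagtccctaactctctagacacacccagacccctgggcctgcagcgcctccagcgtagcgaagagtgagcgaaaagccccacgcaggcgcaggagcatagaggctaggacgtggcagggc
The *Anxa2* window held 1 match each to the GC box and AP-1 letters, which do not overlap, and the *Anxa5* window held none of the 5 motifs. Of 32851 promoter windows of up to 250 bases, 32.7% held the GC box, 4.46% AP-1, 6.02% the E-box, 7.69% the ETS core and 12.4% the TATA box. These windows were not cut at the gene start. Annexin windows that ran into the gene were, to 187 bases for *Anxa2* and 243 for *Anxa5*, so the shares are for longer windows. The windows of *Anxa7* and *Anxa11* held the GC box alone and that of *Anxa4* none of the 5.

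*Anxa3*, an annexin known from neutrophils and microglia, was by far the most abundant member, at 275 CPM (272 to 279) in VEH and 138 CPM (136 to 140) in LEM. *Anxa4*, which coats membranes in flat arrays and is best known from secretory epithelia, came next in VEH at 41.7 CPM (40.6 to 42.9) and was at 31.1 CPM (30.2 to 31.9) in LEM. *Anxa6*, which has a doubled core and acts on late endosomes and cholesterol, was at 39.4 CPM in VEH and 37.6 CPM in LEM. These were followed closely by *Anxa5*, the phosphatidylserine binder used as a stain for dying cells, at 36.5 CPM in VEH and 35.5 CPM in LEM, and by *Anxa7*, which promotes fusion of secretory granules, at 36.1 and 35.6 CPM. In VEH the intervals of *Anxa5* (35.4 to 37.7) and *Anxa7* (35.0 to 37.2) overlapped, as they did in LEM (34.6 to 36.4 and 34.6 to 36.5). *Anxa11*, which links RNA granules to lysosomes, was at 15.6 and 15.2 CPM. *Anxa2*, the partner of S100A10 at the plasma membrane, was at 1.34 and 1.69 CPM, and *Anxa1*, a ligand of formyl peptide receptors that ends neutrophil recruitment, was barely detected, on 6 VEH and 22 LEM counts.

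A count of *Anxa3* was present in 71.0% (70.4 to 71.7) of VEH cells and 47.6% (47.0 to 48.3) of LEM cells. After each cell was thinned to 2000 counts, which left out 1305 VEH and 1215 LEM cells below that depth, the shares were 39.7% and 21.5%. *Anxa4* was found in 21.9% and 17.3% of cells, and in 7.46% and 5.75% after thinning. The shares of *Anxa5* (16.8% and 16.7%), *Anxa6* (20.8% and 20.6%), *Anxa7* (19.2% and 19.9%) and *Anxa11* (9.12% and 9.23%) lay close together in both libraries. Annexins are widely expressed, so no gated class is known to lack them, and no class could serve as a gauge of free RNA. In choroid plexus-like droplets, with median counts of 9430 in VEH and 8708 in LEM, *Anxa3* was at 169 and 78.7 CPM, which is 63.8% and 63.1% of the homeostatic level. Microglial genes were there at similar shares of their homeostatic level, from 53.5% (*P2ry12*) to 59.8% (*C1qb*) in VEH and from 45.4% (*P2ry12*) to 53.1% (*Ctss*) in LEM. *Anxa2* (1653% and 1027%), *Anxa5* (354% and 255%), *Anxa6* (155% and 175%) and *Anxa11* (401% and 502%) were above their homeostatic level there in both libraries, *Anxa7* (136%) in VEH and *Anxa4* (166%) in LEM. The *Anxa2* values rest on 3 VEH and 9 LEM counts in the droplets. In VEH, *Anxa6* and *Anxa7* had 24 and 19 counts there, with intervals that reached their homeostatic level. With microglial genes at these shares, free RNA and RNA of a microglial cell in the same droplet cannot be told apart there. The part of free RNA in the shares of cells was not tested.

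Of the 8 members, *Anxa5* and *Anxa2* were higher in DAM than in homeostatic cells by the widest margin, in both libraries. *Anxa5* was at 27.5 CPM (26.4 to 28.6) in homeostatic and 143 CPM (132 to 155) in DAM cells of VEH, and at 26.7 CPM (25.8 to 27.7) and 134 CPM (125 to 143) in LEM. These levels correspond to a 5.21-fold difference in VEH (log2 ratio 2.38, 2.25 to 2.51) and a 5.01-fold difference in LEM (2.33, 2.21 to 2.44). A count of *Anxa5* was present in 72.4% and 71.5% of DAM cells against 13.2% and 13.1% of homeostatic cells. DAM cells held more RNA, with a median of 11762 counts in VEH and 12516 in LEM against 5672 and 5758 in homeostatic cells. At an equal 2000 counts per cell the shares were 24.9% and 21.9% in DAM and 4.82% and 5.09% in homeostatic cells, so the order was kept.

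*Anxa2* was nearly absent from homeostatic cells, at 0.465 CPM (0.332 to 0.633) in VEH and 0.718 CPM (0.573 to 0.889) in LEM. In DAM cells it was at 15.5 CPM (12.1 to 19.6) and 12.2 CPM (9.61 to 15.2), a 33.4-fold difference in VEH (log2 ratio 5.06, 4.48 to 5.66) and a 16.9-fold difference in LEM (4.08, 3.62 to 4.55). DAM cells, 2.07% of VEH and 2.10% of LEM cells, held 44.2% (36.3 to 52.4) of all *Anxa2* counts of VEH and 28.3% (23.0 to 34.1) of those of LEM. Being deeper than homeostatic cells, DAM cells also held a larger share of the counts of all genes than of cells. The VEH *Anxa2* counts came from 48 DAM cells and the LEM *Anxa2* counts from 50, with at most 5 counts in a cell. Between the libraries, the *Anxa2* log2 ratio of LEM over VEH was 0.63 (0.07 to 1.21) in homeostatic cells and -0.35 (-0.84 to 0.14) in DAM cells. In DAM cells it was -0.38 (-1.23 to 0.48) for female and 0.42 (-0.34 to 1.2) for male cells, and -0.56 (-1.07 to -0.05) without cells of high doublet score, so its direction there was not settled. In contrast, *Anxa5* counts were spread more widely, with 15.0% and 14.8% of them in DAM cells.

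*Anxa3* was also higher in DAM cells, but from a high base. In VEH it was at 265 CPM (261 to 268) in homeostatic and 433 CPM (414 to 453) in DAM cells, a log2 ratio of 0.71 (0.64 to 0.78). In LEM it was at 125 CPM (123 to 127) and 315 CPM (301 to 329), a log2 ratio of 1.34 (1.27 to 1.40). *Anxa4* was higher in DAM by 0.40 (0.20 to 0.59) in VEH and 0.52 (0.33 to 0.70) in LEM on the log2 scale, and *Anxa7* by 0.35 (0.13 to 0.55) and 0.39 (0.21 to 0.57). *Anxa11* was higher by 0.06 in VEH, with an interval that held 0 (-0.31 to 0.40), and by 0.47 (0.19 to 0.73) in LEM. *Anxa6* went the other way. It was at 39.7 and 37.5 CPM in homeostatic and at 28.3 and 23.1 CPM in DAM cells of VEH and LEM, log2 ratios of -0.49 (-0.76 to -0.23) and -0.70 (-0.95 to -0.46). *Anxa1* had 0 counts in DAM cells of both libraries, which, with up to 3 counts allowed for a count of 0, limits it to 0.674 CPM in VEH and 0.474 CPM in LEM.

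These counts can be read against all genes detected in 1% of cells or more in at least 1 library, a level that 6 of the 8 members reached and *Anxa1* and *Anxa2* did not. A log2 ratio of at least 1 of DAM over homeostatic cells was seen in 4.33% of genes in VEH and 3.64% in LEM, and a ratio of -1 or less in 8.75% and 8.58%. Of the 6 members above the detection level, 1 (*Anxa5*) was past 1 in VEH and 2 (with *Anxa3*) in LEM, and 0 were at -1 or less. *Anxa2*, past 1 in both libraries, is below that level and not part of these shares. The median ratio over the 6 members was 0.37 in VEH and 0.49 in LEM, beside -0.32 and -0.33 over all genes. By rank, 99.1% of genes in VEH and 99.2% in LEM had a lower ratio than *Anxa5*, and 33.8% and 19.6% had a lower ratio than *Anxa6*.

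Marker lists of other cells were summed in DAM cells, where the 4 neuronal markers were at 0 in both libraries. The 7 BAM markers summed to 2.25 CPM in VEH and 1.26 CPM in LEM, against 2.95 and 2.36 CPM in homeostatic cells, with *Cd163* and *Lyve1* at 0 in DAM cells of both. The 4 oligodendrocyte markers summed to 15.3 and 19.6 CPM against 30.8 and 32.8 CPM in homeostatic cells, and the endothelial, fibroblast and mural, and neutrophil or monocyte lists were also lower in DAM cells of both libraries. The 4 astrocyte markers were higher in DAM cells, at 4.94 and 6.48 CPM against 2.03 and 2.05 CPM. The 8 choroid plexus markers summed to 3.37 and 3.95 CPM against 2.13 and 3.81 CPM, and the 7 lymphocyte markers had 2 counts in DAM cells of VEH (0.449 CPM against 0.163 CPM) and 0 in LEM. Their part in the annexin levels of DAM cells was not tested. Of DAM cells, 7.37% in VEH and 9.75% in LEM had a doublet score among the highest of their library, against 9.41% and 9.26% of homeostatic cells.

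**Figure D1:**
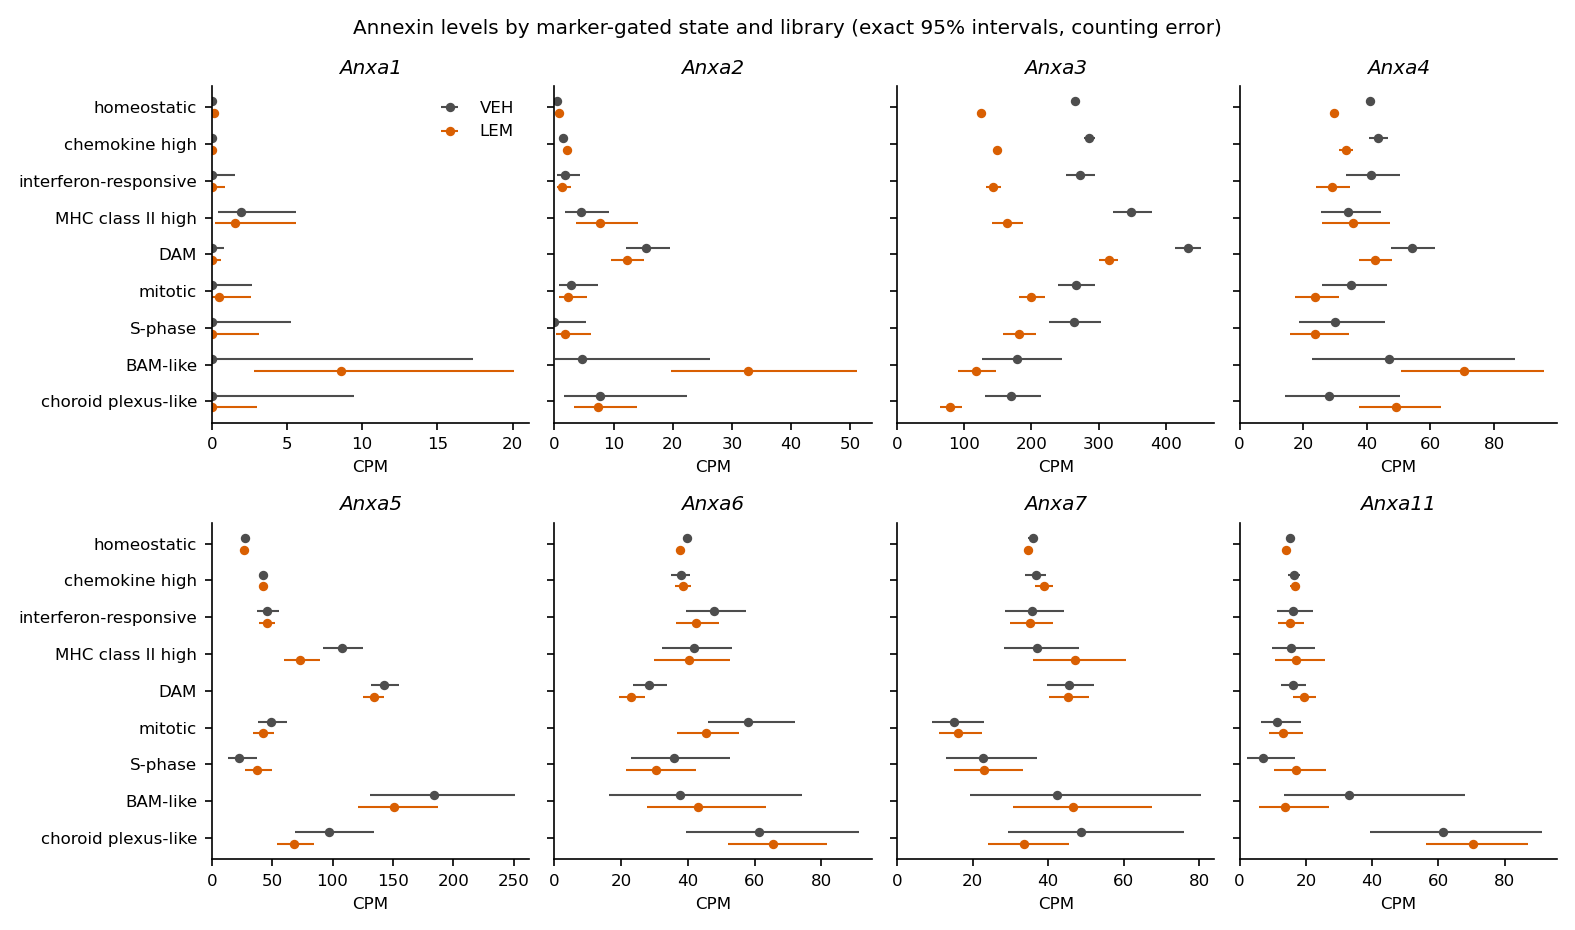
Level of each annexin (x axis, CPM, own scale in each panel) in 9 marker-gated states (y axis) of the VEH (grey) and LEM (orange) library; points are CPM of the summed cells and bars exact 95% intervals of counting error, with 1 library per treatment. *Anxa5* and *Anxa2* stand high in DAM cells in both libraries, *Anxa3* is higher in VEH in all 9 states, and *Anxa7* is lowest in mitotic cells.

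The steps between the homeostatic and DAM states were followed by counting how many of the 7 DAM markers a cell had, leaving out dividing cells and cells of other types. *Anxa5* was at 26.7, 34.9, 62.3, 101, 131 and 153 CPM in VEH cells with 0, 1, 2, 3, 4 and 5 or more markers. In LEM cells it was at 25.1, 34.0, 57.6, 90.4, 117 and 147 CPM. At the depth of each cell it was thus higher at each step in both libraries, and the cells with 2 or 3 markers, below the DAM gate, lay between the ends. *Anxa2* was below 2 CPM in VEH cells with up to 2 markers and was at 3.72, 9.52 and 20.4 CPM with 3, 4 and 5 or more. In LEM it was at 0.660, 1.16 and 3.29 CPM with 0, 1 and 2 markers, and at 6.91, 7.79 and 15.7 CPM with 3, 4 and 5 or more. *Anxa6* was at 39.3 CPM with 0 markers and 25.3 CPM with 5 or more in VEH, and at 38.2 and 20.9 CPM in LEM. Depth moved with the number of markers, from a median of 5630 counts with 0 markers to 12676 with 5 or more in VEH and from 5688 to 13371 in LEM. With cells thinned to 2000 counts, *Anxa5* was at 27.3, 38.4, 114, 158, 130 and 262 CPM in VEH and at 26.7, 48.8, 107, 168, 116 and 212 CPM in LEM. It was then not higher at each step, being lower with 4 markers than with 3 in both libraries. The last values rest on 11 counts in 21 VEH cells (131 to 469) and 11 counts in 26 LEM cells (106 to 379). Thinned *Anxa2* and *Anxa6* were on at most 4 counts in each library with 4 or with 5 or more markers, too few to follow. With 0, 1 and 2 markers, thinned *Anxa2* was at 0.610, 1.99 and 5.85 CPM in VEH and at 0.919, 2.93 and 13.5 CPM in LEM. Thinned *Anxa6* was at 39.5, 38.4 and 33.6 CPM in VEH and at 37.6, 32.9 and 34.4 CPM in LEM. In LEM, *Anxa2* was at 10.6 and 7.25 CPM with 3 and 4 markers, on 4 and 1 counts. *Anxa6* was at 38.5 CPM (4.66 to 139) in LEM with 5 or more, on 2 counts. The order of these 2 genes beyond 2 markers was thus not settled at equal depth.

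**Figure D2:**
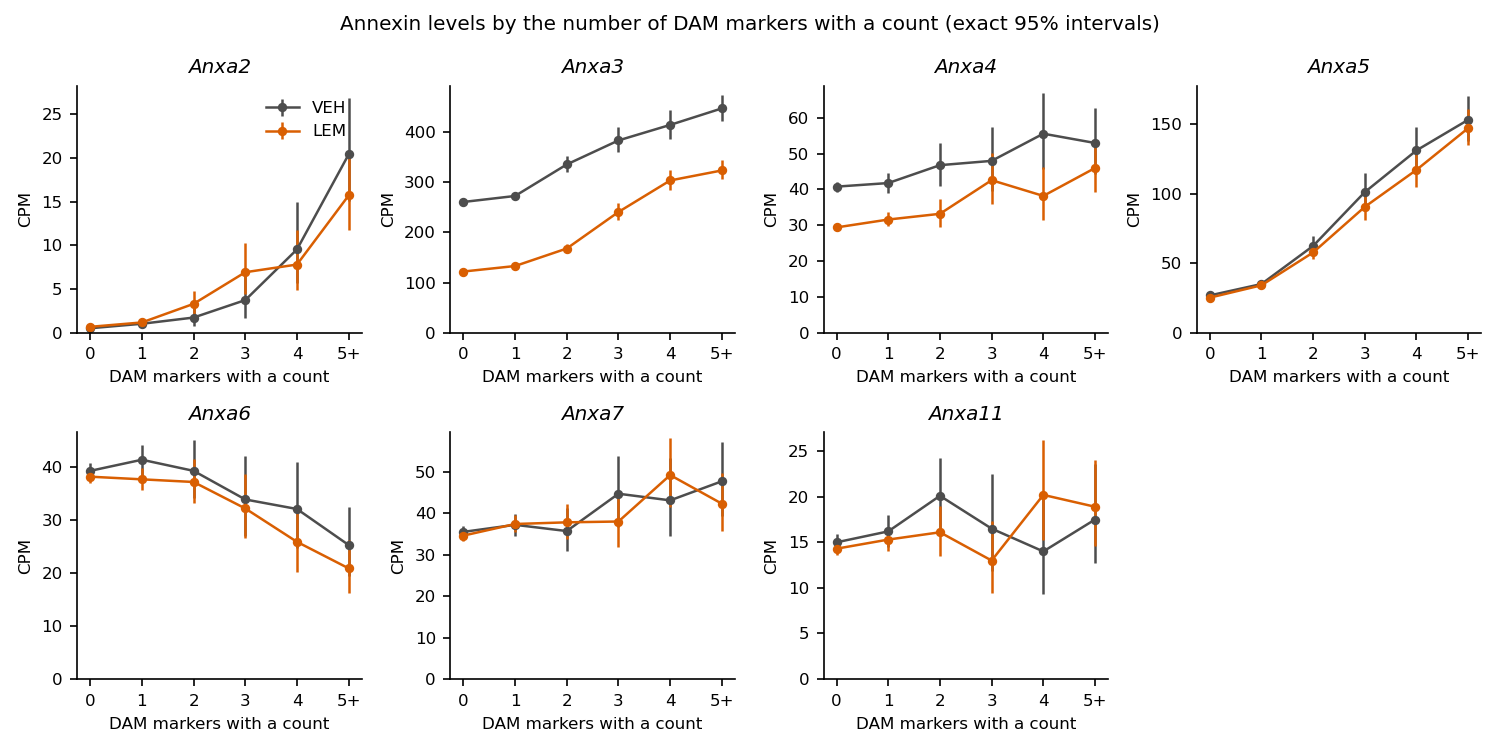
Level of 7 annexins (y axis, CPM) by the number of DAM markers with a count in a cell (x axis, 0 to 5 or more) in VEH (grey) and LEM (orange); bars are exact 95% intervals of counting error. *Anxa5* goes from 26.7 to 153 CPM in VEH and from 25.1 to 147 CPM in LEM, the *Anxa3* lines stay apart at every step, and *Anxa6* is lower at the right end of both lines at each cell's own depth.

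Outside DAM, *Anxa5* was also above its homeostatic level in both libraries in MHC class II high, interferon-responsive, chemokine high and mitotic cells. The same held in choroid plexus-like droplets, as given above, and in BAM-like cells, described below. In MHC class II high cells *Anxa5* was at 108 CPM (92.0 to 125) in VEH and 73.4 CPM (59.4 to 89.8) in LEM. In this gate the microglia markers were near their homeostatic level (40296 and 40360 CPM against 41476 and 42412 CPM), but markers of other cells and states were higher. DAM markers summed to 1098 and 757 CPM against 54.8 and 67.1 CPM in homeostatic cells, BAM markers to 77.6 and 92.0 CPM against 2.95 and 2.36 CPM, and neutrophil or monocyte markers to 28.2 and 64.1 CPM against 6.55 and 7.88 CPM. Of the 7 neutrophil or monocyte markers, only *Ccr2* and *Plac8* had a count in this gate, in both libraries. *S100a8*, *S100a9*, *Retnlg*, *Ly6c2* and *Hp* had no count there. The part of the DAM, BAM and neutrophil or monocyte markers in the *Anxa5* level of the gate was not tested. Interferon-responsive cells had 46.0 and 45.3 CPM, chemokine high cells 42.0 and 42.1 CPM, and mitotic cells 49.3 and 42.1 CPM. In these cells and in MHC class II high cells the level lay between the homeostatic and the DAM level of the same library. The intervals of the interferon-responsive, chemokine high and mitotic cells overlapped in each library. DAM markers were above their homeostatic sums in these 3 gates too. They summed to 215 and 177 CPM in interferon-responsive, 183 and 183 CPM in chemokine high and 259 and 457 CPM in mitotic cells. The part of these markers in the *Anxa5* levels of the 3 gates was not tested. In S-phase cells *Anxa5* was at 22.8 CPM (13 to 37.1) in VEH, and at 37.3 CPM (27.1 to 50.1) in LEM. *Anxa2* had 7 counts in MHC class II high cells of VEH and 10 in those of LEM, or 4.49 and 7.73 CPM.

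*Anxa7* was lower in mitotic than in homeostatic cells of both libraries. The share of all genes past the fold in mitotic cells was not counted. In mitotic cells it was at 15.0 CPM (9.30 to 23.0) in VEH and 16.1 CPM (11.1 to 22.5) in LEM, against 35.9 and 34.6 CPM in homeostatic cells, log2 ratios of -1.26 (-1.95 to -0.64) and -1.11 (-1.64 to -0.62). S-phase cells were at 22.8 and 22.9 CPM, on 16 and 27 counts. Their intervals overlapped those of mitotic cells in both libraries, and in VEH the interval also held the homeostatic level. The order of S-phase and mitotic cells was thus not settled. In mitotic cells the 6 microglia markers summed to 28855 and 29935 CPM, against 41476 and 42412 CPM in homeostatic cells. The 7 neutrophil or monocyte markers summed to 51.5 and 71.8 CPM against 6.55 and 7.88 CPM, with *S100a8*, *S100a9*, *Retnlg* and *Ly6c2* at 0 in mitotic cells of both libraries. The part of these markers in the annexin levels of mitotic cells was not tested. *Anxa6* was at 57.9 CPM (46.0 to 72.0) and 45.4 CPM (36.7 to 55.4) in mitotic cells. Its log2 ratio over homeostatic cells was 0.54 (0.21 to 0.86) in VEH, and in LEM it was 0.27 with an interval that held 0 (-0.03 to 0.56). *Anxa11* was close to its homeostatic level of 15.3 and 14.1 CPM in most states and, of the named states with more than 1 cell, highest in choroid plexus-like droplets, at 61.4 CPM (39.4 to 91.4) in VEH and 70.5 CPM (56.4 to 87.1) in LEM.

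BAM-like cells, named after macrophages of the brain's borders, had the highest *Anxa5* level of the named states with more than 1 cell. It was at 184 CPM (131 to 251) in 25 VEH cells and 151 CPM (121 to 187) in 68 LEM cells. These intervals overlapped those of DAM cells. The 62 ungated cells of LEM had 167 CPM (99.2 to 265) on 18 counts. In the BAM-like gate the 6 homeostatic markers summed to 15028 CPM in VEH and 13916 CPM in LEM, against 24756 and 25074 CPM in homeostatic cells. The 8 mitotic markers summed to 198 and 6.89 CPM there, against 6.56 and 7.29 CPM. The part of these markers in the annexin levels of the gate was not tested. In BAM-like cells *Anxa3* was at 179 and 117 CPM, below its homeostatic level in VEH (log2 ratio -0.56, -1.06 to -0.11) and near it in LEM (-0.09, -0.46 to 0.25). *Anxa2* was at 32.7 CPM in BAM-like cells of LEM, but 15 of its 19 counts came from 1 cell, and VEH had 1 count. *Anxa1* had 5 counts in 4 BAM-like cells of LEM and 0 in VEH. Of its 22 LEM counts, 14 lay in 7 homeostatic cells, 5 of them in 1 cell, and its 6 VEH counts were 3 in homeostatic and 3 in MHC class II high cells.

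Between the libraries, *Anxa3* was lower in LEM, *Anxa4* was lower by less, and 4 further members differed little over all cells. *Anxa3* counts numbered 32021 (VEH) and 22212 (LEM), and its level in LEM was 0.502 of that in VEH (log2 ratio -1.0, -1.02 to -0.97). Of the 11910 genes above the detection level, 40 had a lower ratio. The log2 ratio of *Anxa4* was -0.43 (-0.48 to -0.37), and 214 genes had a lower one. *Anxa5* (-0.04, -0.10 to 0.02), *Anxa7* (-0.02, -0.08 to 0.03) and *Anxa11* (-0.04, -0.13 to 0.05) had intervals that held 0, and that of *Anxa6* lay just below it (-0.07, -0.13 to -0.01). *Anxa2* was at 0.33 (0.04 to 0.63) on 156 and 272 counts. *Anxa1* was at 1.41 (0.06 to 3.0), on counts that gathered in few cells, a spread that the interval does not cover. Past the fold used here, a log2 ratio of 0.5, 1 of the 6 members above the detection level was lower (*Anxa3*) and 0 were higher, and *Anxa1*, also past it, is below that level. Over all genes above it, 1.24% were at or below -0.5 and 1.62% at or above 0.5. The median was -0.06 over the 6 members and 0.01 over all genes.

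Female and male cells, told apart by *Xist* and Y-linked counts, came from different mice of the same pool, and sex and mouse cannot be told apart. There were 5686 female and 9025 male cells in VEH and 8409 and 11223 in LEM. A further 981 VEH and 1764 LEM cells had counts of both kinds, and 2682 and 2996 had neither. These are in the values over all cells but in neither sex. *Anxa3* was at 312 CPM in female and 254 CPM in male cells of VEH, and at 194 and 97.1 CPM in LEM. LEM was thus lower in both sexes, with a log2 ratio of -0.68 (-0.72 to -0.64) for female cells and of -1.39 (-1.43 to -1.35) for male cells. Within LEM, female cells exceeded male cells by 1.00 (0.96 to 1.05) on the log2 scale, the same size as the difference between the libraries, and within VEH by 0.29 (0.26 to 0.33).

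*Anxa4* was at 44.8 CPM in female and 39.3 CPM in male cells of VEH, and at 30.4 and 31.8 CPM in LEM. LEM was lower in both sexes, by log2 ratios of -0.56 (-0.66 to -0.46) and -0.31 (-0.39 to -0.22). *Anxa5* had 35.2 and 36.4 CPM in VEH and 41.2 and 30.2 CPM in LEM. Beside its small ratio over all cells, its LEM level was higher in female cells (0.23, 0.13 to 0.33) and lower in male cells (-0.27, -0.35 to -0.18). *Anxa6* was at 38.6 and 40.3 CPM in VEH and at 40.4 and 34.8 CPM in LEM, log2 ratios of 0.07 (-0.03 to 0.16) for female and -0.21 (-0.29 to -0.13) for male cells. *Anxa7* (0.01 and -0.07) and *Anxa11* (-0.05 and 0.00) differed little between the libraries in either sex. *Anxa2* was at 1.75 CPM in female and 0.856 CPM in male cells of VEH and at 1.83 and 1.34 CPM in LEM.

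Differences between the sexes of 1 library are given beside those between the pools. They mix sex with mouse, so they do not measure the spread between pools of both sexes. Female cells were higher than male cells by at least 0.5 in 3.13% of genes in VEH and 2.13% in LEM, and lower by at least 0.5 in 2.25% and 1.91%. Of the 6 members above the detection level, 0 were past that fold in VEH, and in LEM 1 was higher in female cells (*Anxa3*) and 0 were lower. Below that level, *Anxa2* was higher in female cells of VEH by 1.03 (0.48 to 1.6), and *Anxa1* was at -1.0 in LEM with an interval from -3.55 to 1.06. Of all genes, 99.5% had a lower ratio of female over male cells in LEM than *Anxa3*, and 92.7% in VEH.

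**Figure D3:**
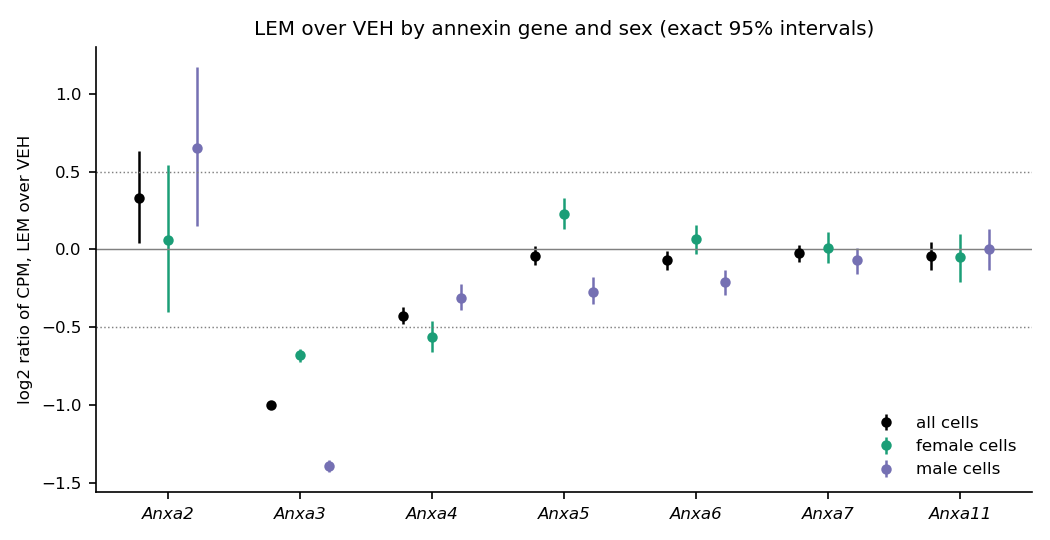
Log2 ratio of CPM of LEM over VEH (y axis) for 7 annexins (x axis) in all cells (black), female cells (green) and male cells (purple); bars are exact 95% intervals of counting error and dotted lines mark 0.5 and -0.5. *Anxa3* lies at -1.0, -0.68 and -1.39, and the female and male values of *Anxa5*, 0.23 and -0.27, lie on opposite sides of 0.

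*Anxa3* was lower in LEM in each of 7 states, but not by the same amount. In homeostatic cells the log2 ratio was -1.09 (-1.12 to -1.06), in chemokine high cells -0.94 (-1.0 to -0.88), in interferon-responsive cells -0.93 (-1.09 to -0.77) and in MHC class II high cells -1.10 (-1.34 to -0.87). In DAM cells it was -0.46 (-0.55 to -0.37), in mitotic cells -0.41 (-0.62 to -0.21) and in S-phase cells -0.54 (-0.83 to -0.25). The intervals of these last 3 states do not overlap that of homeostatic cells. Split by sex, homeostatic cells of VEH were at 303 CPM (female) and 241 CPM (male) and those of LEM at 181 and 85.9 CPM. DAM cells of VEH were at 488 and 411 CPM and those of LEM at 372 and 284 CPM, a DAM ratio of -0.39 (-0.54 to -0.24) for female cells and -0.53 (-0.68 to -0.39) for male ones. The one split of these 7 states in which LEM was not lower was that of female mitotic cells, at 233 CPM in VEH on 128 counts and 255 CPM in LEM on 144 (0.13, -0.22 to 0.49).

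By the number of DAM markers, the log2 ratio of *Anxa3* was -1.10, -1.03 and -1.0 in cells with 0, 1 and 2 markers and -0.67, -0.45 and -0.47 in cells with 3, 4 and 5 or more. With cells thinned to 2000 counts before their markers were counted, the ratios were -1.06, -1.09, -0.85, -0.24, -0.72 and -0.92, with no steady order. Of these, the intervals of 3 markers (-0.60 to 0.14) and of 5 or more (-1.97 to 0.08) held 0. The smaller ratio of DAM cells was thus less clear at equal depth. With the same DAM cells thinned to 2000 counts it was -0.61 (-0.84 to -0.39), and with the gate also set on thinned cells it was -0.85 (-1.37 to -0.34) over 76 VEH and 96 LEM cells, an interval that reaches the homeostatic value. Without cells of high doublet score it was -0.41 (-0.51 to -0.32). The part of depth in the ratio of DAM cells was not tested further.

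**Figure D4:**
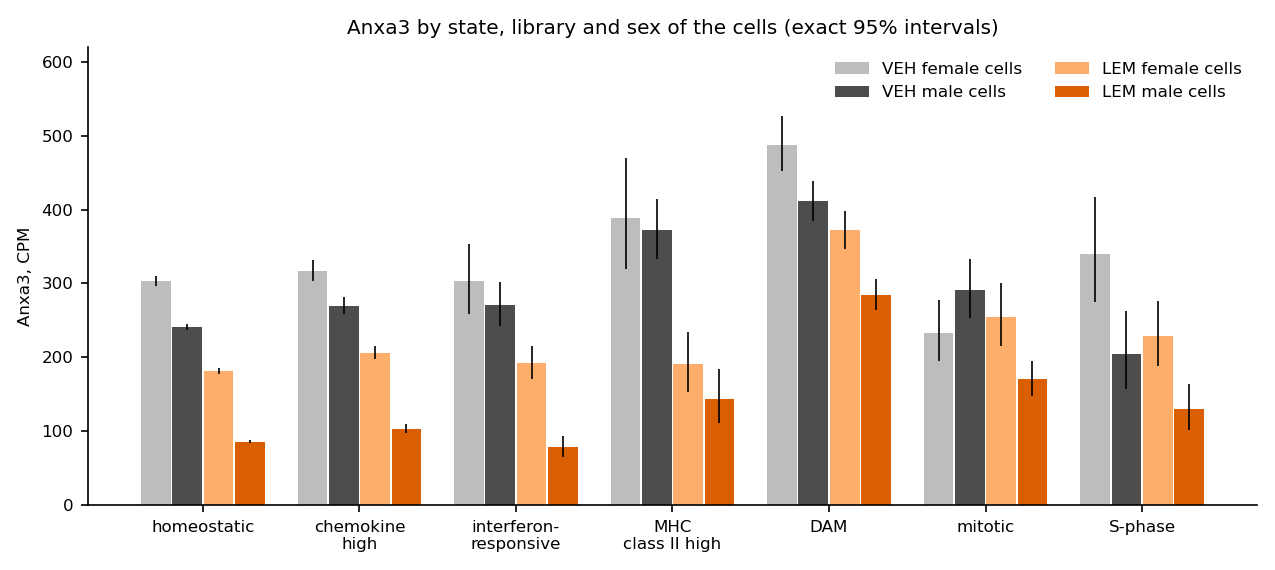
*Anxa3* level (y axis, CPM) in 7 states (x axis), with bars for female and male cells of VEH (light and dark grey) and LEM (light and dark orange) and exact 95% intervals of counting error. Male homeostatic cells are at 241 CPM in VEH and 85.9 CPM in LEM, and male DAM cells at 411 and 284 CPM.

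*Anxa4* was lower in LEM in homeostatic (-0.47, -0.53 to -0.40), chemokine high (-0.38, -0.52 to -0.24), interferon-responsive (-0.51, -0.91 to -0.11) and DAM cells (-0.35, -0.60 to -0.09). In MHC class II high cells its ratio was 0.07, with an interval from -0.54 to 0.66. *Anxa5* was alike in the libraries in homeostatic (-0.04), chemokine high (0.00) and interferon-responsive cells (-0.02), and in DAM cells at -0.10 (-0.25 to 0.05). MHC class II high cells were the exception among these, at -0.55 (-0.93 to -0.18), and the ratio was below 0 there in female (-0.85) and male cells (-0.81). The DAM markers of this gate were also lower in LEM, and its BAM markers and the sum of *Ccr2* and *Plac8* were higher, as given above. The part of these markers in this ratio was not tested. The opposite direction of *Anxa5* in the sexes was seen in homeostatic cells (0.27 in female, -0.26 in male) and chemokine high cells (0.26 and -0.21), but not in DAM cells (-0.06 and -0.18). On fewer counts, mitotic (0.79 and -0.68) and interferon-responsive cells (0.76 and -0.33) were opposite in the same way, and S-phase cells the other way round (-0.59 and 2.59), the male value resting on 2 VEH and 22 LEM counts.

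Within homeostatic cells, the libraries differed at every number of *Anxa3* counts per cell. After thinning, 61.0% of VEH and 79.4% of LEM homeostatic cells had no *Anxa3* count, beside 59.6% and 78.2% for a Poisson spread around the same mean. Cells with 1 count made up 29.1% and 17.2%, and cells with 3 or more counts 2.11% and 0.507%. The ratio of variance to mean was 1.11 in VEH and 1.13 in LEM. The squared coefficient of variation left after the Poisson part was 0.216 in VEH and 0.539 in LEM for *Anxa3*, and 1.95 and 1.82 for *Anxa5*. For *Anxa3* it was 0.202 and 0.333 in female cells and 0.189 and 0.539 in male cells, so the LEM value was lower in female cells by more than 1.5 times.

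Genes that work with annexins were taken as 4 lists. Of the S100 proteins that bind annexin tails, 0 of 4 were past 0.5 between the libraries, with a median log2 ratio of -0.03. Over all genes above the detection level, 1.62% were at or above 0.5 and 1.24% at or below -0.5. *S100a10*, the partner of *Anxa2*, was at 13.9 CPM in homeostatic and 3.37 CPM in DAM cells of VEH, and at 12 and 5.69 CPM in LEM, log2 ratios of -2.04 (-2.88 to -1.31) and -1.08 (-1.60 to -0.60). In DAM cells it was thus lower while *Anxa2* was higher. This did not hold in every state, since in BAM-like cells of LEM *S100a10* was at 37.9 CPM on 22 counts, above its homeostatic level as *Anxa2* was. *S100a11*, a partner of *Anxa1* and *Anxa6*, was higher in DAM cells by 0.92 (0.31 to 1.47) and 0.66 (0.17 to 1.12). In all, 2 of 3 S100 genes with a ratio were at -1 or less in DAM cells of VEH and 3 of 4 in LEM, beside 8.75% and 8.58% of all genes above the detection level. *S100a4* in VEH and *S100a6* in LEM had 1 count each in DAM cells, and *S100a6* is below that level.

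The receptors of *Anxa1* were hardly found, with 2 counts of *Fpr1* in VEH and 10 in LEM, 1 and 1 of *Fpr2*, and 11 and 22 of *Fpr3*. *Hebp1*, whose N-terminal peptide is another ligand of these receptors, was about as abundant as *Anxa3* and lower in LEM by nearly as much, at 280 CPM (276 to 283) in VEH and 148 CPM (146 to 150) in LEM (-0.92, -0.94 to -0.89). Female cells had a ratio of -1.23 and male cells one of -0.71, the reverse order of *Anxa3*. Unlike *Anxa3*, *Hebp1* was lower in DAM than in homeostatic cells, by log2 ratios of -0.74 (-0.84 to -0.64) in VEH and -0.44 (-0.55 to -0.33) in LEM.

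Of 9 membrane repair and calcium-binding genes with a ratio, 2 were at -0.5 or less in LEM and 1 was at 0.5 or more, with a median of -0.04, beside 1.24% and 1.62% of all genes above the detection level. The 2 were the calpain subunits *Capn1*, at 8.31 and 5.64 CPM (-0.56, -0.69 to -0.43), and *Capn2*, at 5.24 and 3.34 CPM (-0.65, -0.82 to -0.48), proteases that act at torn membranes. The 1 was *Ahnak*, on 23 and 46 counts (0.53, -0.22 to 1.32) and below that level. Of 8 with a ratio in DAM cells, 1 was at -1 or less in VEH (*Capn2*) and 1 at 1 or more in LEM (*Capn1*), with medians of 0.18 and 0.24, beside 8.75% of genes at -1 or less in VEH and 3.64% at 1 or more in LEM.

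Of 12 genes that expose or recognise phosphatidylserine, 3 were at 0.5 or more in LEM and 0 at -0.5 or less, with a median of 0.02, beside 1.62% and 1.24% of all genes above the detection level. They were *Cd300lf*, a phosphatidylserine receptor of myeloid cells, at 117 and 176 CPM (0.59, 0.56 to 0.62), *Plscr1* at 1.05 and 1.73 CPM (0.72, 0.41 to 1.04) and *Timd4* on 3 and 9 counts, far below that level. In male cells neither *Cd300lf* (0.43, 0.39 to 0.48) nor *Plscr1* (0.17, -0.30 to 0.66) was past 0.5, against 0.73 and 1.32 in female cells. In DAM cells 3 of 11 with a ratio (*Axl*, *Mfge8* and *Plscr1*) were past 1 in each library, with medians of -0.12 and -0.03, beside 4.33% and 3.64% of all genes. *Axl*, which takes up corpses through bridging proteins, was at 4.79 CPM in homeostatic and 133 CPM in DAM cells of VEH and at 7.15 and 132 CPM in LEM. *Mfge8*, a bridge that binds the same lipid as *Anxa5*, was higher in DAM by 1.14 (0.91 to 1.36) and 1.10 (0.90 to 1.29). *Mertk*, the abundant relative of *Axl*, was lower in DAM, by log2 ratios of -0.74 and -0.79.

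Likeness was measured as Pearson's r of log2(CPM + 1) over 14 points, the 7 states with at least 50 cells in both libraries, among 7514 genes found in at least 10% of cells. The points share libraries and differ in depth, so r is a description. Among members, *Anxa2* and *Anxa5* were the most alike pair (0.95), *Anxa3* and *Anxa4* reached 0.66, and *Anxa6* and *Anxa7* were the least alike (-0.50). The genes most like *Anxa5* were *Cox4i1*, *mt-Atp8* and *Ly86* (0.97 each), and those most like *Anxa2* were *mt-Atp6* (0.97), *mt-Nd4* and *mt-Atp8* (0.96 each). *Anxa3* was most like *Pianp* (0.94), *Cfap77* and *Rpl29* (0.90 each), *Anxa4* most like *Fam219a* (0.85), *Anxa6* most like *Med15* (0.92), *Anxa7* most like *Rabac1* (0.99) and *Anxa11* most like *Rrad* (0.90).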

How the data were processed

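RNA was captured by the authors with the 10x Chromium 5′ chemistry, and molecules were assigned and counted in Cell Ranger 8.0.0 against mm10. The methods name SoupX 1.6.2 as a correction for free RNA, and cells were kept only with at least 500 genes, at most 20000 counts and at most 2.5% mitochondrial RNA. The deposited values are unnormalized counts, all of them whole numbers, so whether they include the SoupX correction could not be told. The table holds 42766 cells, whose lowest number of genes was 501, highest total 19999 and highest mitochondrial share 2.50%, so all were past the stated filters. They are fewer cells than the study states. Cell names carry the treatment and a number, not a barcode, so barcodes that the libraries share could not be counted. The members and the gene lists were chosen with earlier results of these data known.

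Counts were summed per library, sex and state and divided by the summed totals (CPM). Ratios have exact binomial intervals, levels Poisson intervals and shares Clopper-Pearson intervals at 95%. No ratio is given where both sides hold at most 3 counts. Cells entered the first state whose marker minimum they met, in the order choroid plexus-like, BAM-like, blood cells, mitotic, S-phase, DAM, interferon-responsive, MHC class II high, chemokine high and homeostatic. The gate code was checked on made cells that held each gate's own markers, and the intervals on counts drawn as Poisson. This does not test the state calls of these data, or a spread between cells or mice beyond Poisson. Doublets were kept in the values given first. Scrublet (scanpy 1.11.5, expected rate 0.1) chose a threshold that marked 0 VEH cells, so the 9.80% of VEH and 9.72% of LEM cells with the highest scores were left out as an alternative. The genes named were the members, all symbols that start with Anxa, the 4 lists and the genes most like each member. Promoter windows are from RefSeq, where *Anxa1*, *Anxa3* and *Anxa6* had no entry used here. Alternatives were other scalings (TMM of edgeR 4.0.16, median of ratios, mean over cells, totals without the 20 most abundant genes), each sex, thinned cells, other gates and other detection levels. The work was done in R 4.3.3 and Python 3.11.15 with scipy 1.17.1, numpy 2.4.6, matplotlib 3.10.9 and pandas 2.3.3.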

Additional observations from a re-analysis of the deposited data

Results flagged for a closer look

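*Anxa5* differed between the libraries in opposite directions in the sexes. Its level was higher in LEM in female cells, with a log2 ratio of 0.23, and lower in LEM in male cells, with a log2 ratio of -0.27. Cells of each sex come from different mice of a pool, and the difference between the sexes was not tested.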

How the results depend on the processing

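No paired analysis was possible because each treatment has 1 library, whose replicate number is only a name. With 1 pool of mice per treatment, no value here separates treatment from pool, and genes with few counts, *Anxa1* and *Anxa2* above all, are limited by depth. Of the values that answer a comparison, 53 stayed within their error under the alternatives and 22 moved, and of single values 506 stayed, 165 moved and 4 reversed, counting as reversed only values at or past their fold that changed sign. Of 624 log2 ratios of members under an alternative, 65 more changed sign from a value under the fold. The *Anxa3* ratio of LEM over VEH was -1.05 as a mean over cells, -0.68 in female and -1.39 in male cells, -0.96 with the sexes weighted equally, -1.03 thinned to 2000 counts, -1.09 in homeostatic cells and -1.03 with states weighted to the VEH shares, so it stayed below -0.5 under each. Members at or below -0.5 were 2 in female cells (*Anxa3* and *Anxa4*), beside 2.44% of all genes. Members at or above 0.5 were 0 in female, 2 in male and 2 in homeostatic cells, beside 3.03%, 2.86% and 2.04%, and these were *Anxa1* and *Anxa2*, below the detection level, so that 0 of the other 6 were. Members past 1 in DAM cells of VEH were 4 when gates and levels were thinned (*Anxa2*, *Anxa4*, *Anxa5* and *Anxa7*), on 5, 13, 26 and 11 counts in 76 cells, or 3 of 5 above the detection level with a ratio, beside 10.7% of all genes. Over genes in at least 10% of cells, 0.518% were higher and 0.518% lower in LEM, 2.64% and 5.46% higher and lower in DAM of VEH, and 2.07% and 5.34% in DAM of LEM. Over all genes with more than 3 counts, 11% were higher and 8.88% lower in LEM, and 9.12% and 8.51% were higher in DAM of VEH and LEM. Of *Anxa2*, 4 values on few counts reversed. With 1 marker fewer, interferon-responsive over homeostatic cells in VEH was -0.33 and LEM over VEH within interferon-responsive cells was 1.78. In female cells, LEM over VEH was -0.35 in MHC class II high and -0.12 in chemokine high cells. The cause was not tested. The doublet threshold and the 3 settings of the *Anxa3* ratio in DAM cells (thinned levels, thinned gates and levels, no doublets) were chosen after seeing the data.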
